A study of Danio rerio with 23 samples.

Results

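The genes described here were nearly silent in heat-shocked sibling embryos at 5.5 hours post fertilisation (hpf) and clearly expressed at 7.5 hpf, the interval in which the zebrafish neural plate is laid out during gastrulation. Of 31743 genes in the deposited tables, 18 had a mean under 1 TPM (a level scaled to gene length and to the library) in both sibling groups at 5.5 hpf and a mean of at least 5 TPM in both at 7.5 hpf. A further 10 genes met these limits but belong to gene families that the choice left out by name, 8 of them hox genes. The limits were met by 46 genes in siblings of hs:dkk1b and by 94 in siblings of hs:wnt8a, so 28 and 76 genes met them in that line alone. The sibling levels chose these genes, and the rise in siblings is therefore given as a description with no test.

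RNA was sequenced from whole embryos in 23 libraries of 8 groups, 3 per group except the hs:wnt8a/+ embryos at 5.5 hpf with 2. The groups were hs:dkk1b/+ embryos and their wild-type siblings at 5.5 and 7.5 hpf, and hs:wnt8a/+ embryos and their wild-type siblings at the same times. A heat-shock promoter drives dkk1b, which encodes a secreted Wnt antagonist, or wnt8a, which encodes a Wnt ligand. All groups, siblings included, were heat shocked, and recovery was at 29 °C. The heat shock lasted 60 minutes at 37 °C for crosses with hs:dkk1b, and for crosses with hs:wnt8a 30 minutes at 39 °C. Carriers were picked by fluorescence, embryos were held in groups of 10 per tube and came from several mating pairs. Nothing in the labels ties replicate libraries to separate clutches, so p-values measure only how far these libraries spread, and part of that may be technical. Times are named after the sample titles (5.5 and 7.5 hpf), where another label field reads 5 and 7 hpf.

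Wnt ligands act through Frizzled receptors and Lrp co-receptors, and Dkk1 proteins bind the co-receptors and block the signal. In vertebrate gastrulae, Wnt signalling gives the neural plate posterior character, and its inhibitors protect the forebrain. Retinoic acid is another posteriorising signal, and the embryo sets its level through enzymes and binding proteins.

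Libraries held 13845788 to 20467185 counts, and 1 TPM of these genes corresponds to 7 to 54 counts. The dkk1b transcript stood at 5286 to 39142 TPM in hs:dkk1b embryos at 7.5 hpf, against 36.9 to 121 TPM in their siblings. The transcript listed as wnt8a_1 stood at 4626 to 5749 TPM in hs:wnt8a embryos at 7.5 hpf, against 241, 3.64 and 22.9 TPM in sibling replicates 1, 2 and 3. At 5.5 hpf wnt8a_1 was at 4367 and 3309 TPM in hs:wnt8a embryos and at 526 to 908 TPM in their siblings, while siblings of hs:dkk1b had 7.23 to 10.7 TPM, so the siblings of hs:wnt8a were not at the level of the other line's siblings. In whole embryos, fewer cells of a type and less RNA per cell cannot be told apart.

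In the summed level of the 18 genes, 3 pairs of libraries stood apart. At 5.5 hpf replicate 2 of the hs:dkk1b line had 4.83 TPM in transgenics and 3.07 TPM in siblings, against 12.7 and 11.6 TPM in the other transgenic libraries and 13.6 and 10.9 TPM in the other siblings. At 7.5 hpf 2 pairs did. Replicate 2 of the hs:dkk1b line had 161 TPM in transgenics and 148 TPM in siblings, against 291 and 362 TPM in the other transgenic libraries and 314 and 328 TPM in the other siblings. Replicate 1 of the hs:wnt8a line had 100.4 TPM in transgenics and 143 TPM in siblings, against 149 and 212 TPM in the other transgenics and 374 and 334 TPM in the other siblings. A list of 6 maternal and pluripotency transcripts moved the other way, with 2289 and 2260 TPM in replicate 2 of the hs:dkk1b line at 5.5 hpf, and at 7.5 hpf with 411 and 491 TPM in replicate 2 of the hs:dkk1b line and 1079 and 939 TPM in replicate 1 of the hs:wnt8a line (transgenic first), each the highest of its group. Yolk syncytial layer markers were low in all 3 pairs. In the 5.5 hpf pair they were at 667 and 722 TPM, against 1358 to 1511 TPM in the other 4 libraries of the line. At 7.5 hpf replicate 2 of the hs:dkk1b line had 1919 and 1941 TPM, against 2482 to 2545 TPM in the others. Replicate 1 of the hs:wnt8a line had 1471 and 1465 TPM, against 1833 to 1978 TPM. All libraries of the hs:wnt8a line at 5.5 hpf had 692 to 797 TPM of these markers. The siblings of the 5.5 hpf pair entered the 5.5 hpf limit, and without sibling replicate 2 of the hs:dkk1b line the limits choose 14 genes. The low libraries were shared by transgenics and siblings of a number, which is why fits with the replicate number as a block are given beside the main fits.

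**Figure D1:**
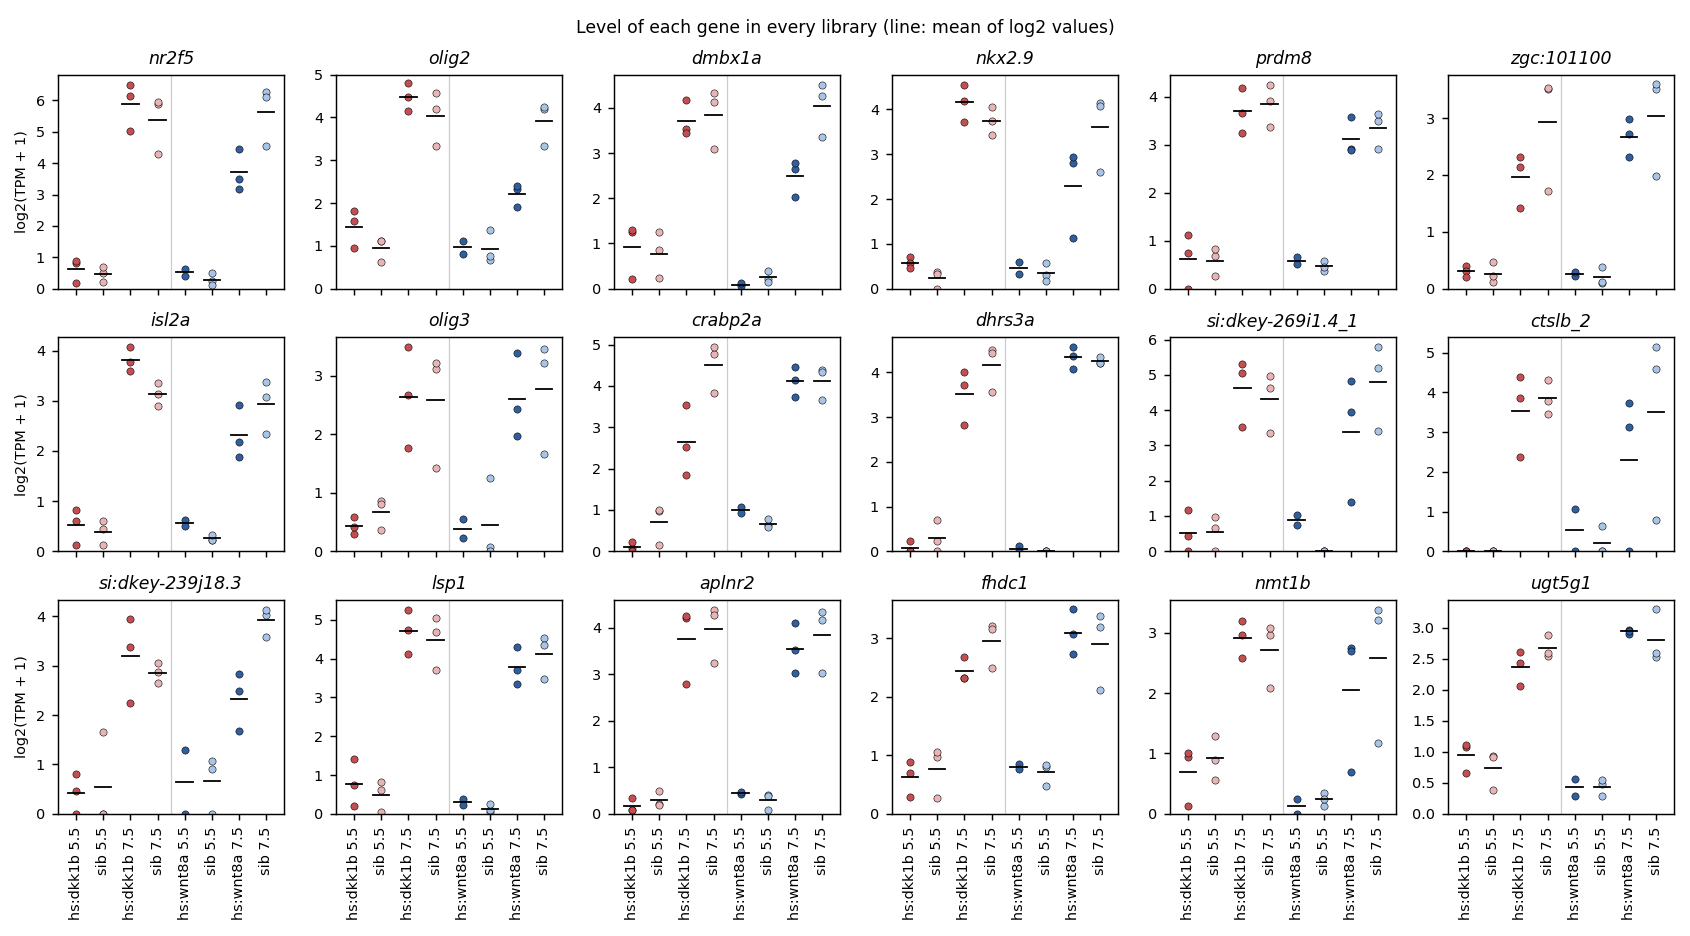
Level of each of the 18 genes in every library, as log2(TPM + 1) on the vertical axis, with 1 point per library and a line at the mean of the log2 values; "sib" marks siblings of the line to its left. In siblings most points at 5.5 hpf lie near 0 and most at 7.5 hpf above, by the rule that chose the genes. The rule used group means, so single libraries can differ, such as ctslb_2 at 0.721 TPM in hs:wnt8a sibling replicate 1 at 7.5 hpf. Levels of olig2, dmbx1a and nr2f5 are low in hs:wnt8a embryos at 7.5 hpf.

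By role, 8 of the 18 genes encode transcription factors, 2 handle retinoic acid, 3 are cathepsin L-like proteases and 5 are a receptor, cytoskeletal proteins and enzymes. By symbol and name pattern alone, 7 of the 18 fell in a class of transcription regulators that holds 5.84% of all genes tested, which is a description and not a test. All genes tested include the families that the choice left out by name, so the set and this share are unlike.

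The most abundant transcription factor was nr2f5 (ENSDARG00000033172), a COUP-TF-type nuclear receptor known from the zebrafish hindbrain, with a mean of 50.7 TPM over both sibling groups at 7.5 hpf. The olig genes encode bHLH factors: olig2 (ENSDARG00000040946, 15.6 TPM), known for motor neuron and oligodendrocyte progenitors, and olig3 (ENSDARG00000074253, 6.34 TPM), known from the dorsal neural tube. The homeodomain genes were dmbx1a (ENSDARG00000009922, 15.4 TPM), named for the diencephalon and mesencephalon, nkx2.9 (ENSDARG00000020332, 12.6 TPM), of a family that marks ventral neural tissue, and isl2a (ENSDARG00000003971, 7.39 TPM), a LIM homeobox gene of early neurons. The last pair were zgc:101100 (ENSDARG00000021959, 7.97 TPM), which the gene name table calls dmbx2, and the zinc finger gene listed as prdm8 (ENSDARG00000025017, 11.6 TPM), whose identifier that table calls znf488.

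The retinoic acid genes were crabp2a (ENSDARG00000073978, 20.0 TPM), a cytoplasmic retinoic acid binding protein, and dhrs3a (ENSDARG00000044982, 17.96 TPM), a retinaldehyde reductase that lowers retinoic acid supply. The cathepsin L-like entries were si:dkey-269i1.4_1 (ENSDARG00000100833, 27.1 TPM), ctslb_2 (ENSDARG00000074306, 16.6 TPM) and si:dkey-239j18.3 (ENSDARG00000089806, 10.3 TPM). The synonym hgg1 of ctslb refers to the hatching gland. Several copies of this family are in the tables, and their sequences were not compared. The strand and multi-read rules of the counting are not given. Copies may share reads, so levels of single copies are uncertain. Copies outside the limits were already expressed at 5.5 hpf. Means in siblings of hs:dkk1b and of hs:wnt8a were 22.2 and 10.3 TPM for ctslb_4 and 5.59 and 7.93 TPM for ctslb_1. They were 4.76 and 2.37 TPM for si:dkey-269i1.4_2, 4.702 and 5.11 TPM for si:dkey-239j18.2, and 1.399 and 1.44 TPM for ctslb_3. At 7.5 hpf ctslb_4 had sibling means of 260.5 and 342 TPM. The rise from near silence therefore describes the entries that met the limits, and not the cathepsin L-like family.

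The remaining genes were lsp1 (ENSDARG00000027310, 20.1 TPM), an actin-binding protein in mammals, aplnr2 (ENSDARG00000004447, 15.06 TPM), a receptor of the apelin receptor family, fhdc1 (ENSDARG00000074812, 6.93 TPM), with an FH2 domain, nmt1b (ENSDARG00000057206, 6.06 TPM), an N-myristoyltransferase, and ugt5g1 (ENSDARG00000032862, 5.82 TPM), a UDP-glucuronosyltransferase. Nearest inside the 5.5 hpf limit, by the higher of the 2 sibling means, were olig2 at 0.954, nmt1b at 0.927 and dmbx1a at 0.783 TPM, and nearest outside were mmp15b at 1.01, nhsa at 1.04 and wu:fj16a03 at 1.09 TPM. At the 7.5 hpf floor, by the lower of the 2 means, ugt5g1 at 5.42, nmt1b at 5.81 and olig3 at 5.89 TPM lay inside, and slc37a4a at 4.97, her4.4 at 4.80 and sfrp2l at 4.74 TPM outside. Only 8 genes meet the limits when every sibling library must meet them.

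The transgenic libraries took no part in choosing the genes, and the rise between times was tested in them with edgeR's quasi-likelihood test. They are not independent of the choice, since their siblings of the same stages made it. Except in hs:wnt8a embryos at 5.5 hpf, their deviations correlated positively with those of same-numbered siblings. Genes chosen for a rise in siblings were likely to rise here too, so the counts of rises describe the set and lend it no separate support. In hs:dkk1b embryos 18 of 18 genes rose at 7.5 hpf against 5.5 hpf. Of all 19504 genes tested, 2953 were called higher, and 30.1% were called in either direction. The median log2 fold change of the 18 genes was 4.60, against 0.04 over all genes tested. Over the 16 genes with more than 3 counts at 5.5 hpf, log2 fold changes ran from 2.06 (ugt5g1) to 6.68 (nr2f5), and adjusted p over the 18 ran from 3.57e-06 to 0.00676. The other two are described by counts: ctslb_2 had 323 counts at 7.5 hpf and 0 at 5.5 hpf, at least 115-fold higher against a floor of 3 counts over the group, and dhrs3a had 379 counts at 7.5 hpf and 2 at 5.5 hpf, a ratio of 202 (exact binomial 95% interval 55.6 to 1676). Intervals and floors here cover counting error only.

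In hs:wnt8a embryos 16 of 18 genes rose at 7.5 hpf against 5.5 hpf. Of all 19504 genes tested, 4184 were called higher, and 39.6% were called in either direction. The median log2 fold change of the 18 genes was 3.92, against 0.05 over all genes tested. The genes not past the test were ctslb_2, at 3.37 (adjusted p = 0.118), and si:dkey-239j18.3, at 2.41 (adjusted p = 0.0964), both cathepsin L-like. The rise was 1.76 for olig2 (adjusted p = 0.00714) and 5.92 for dmbx1a, the ends of the range over the 16 genes with more than 3 counts at 5.5 hpf. For dhrs3a there were 784 counts at 7.5 hpf and 1 at 5.5 hpf (ratio 466, interval 83.5 to 18449), and for nmt1b 154 and 2 (ratio 45.8, interval 12.5 to 382). Without hs:wnt8a replicate 2 at 5.5 hpf, 12 genes passed the test. In olig2 the rise was 3.48 in hs:dkk1b embryos (adjusted p = 8.61e-06), and the gap between the lines' rises was not tested.

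**Figure D2:**
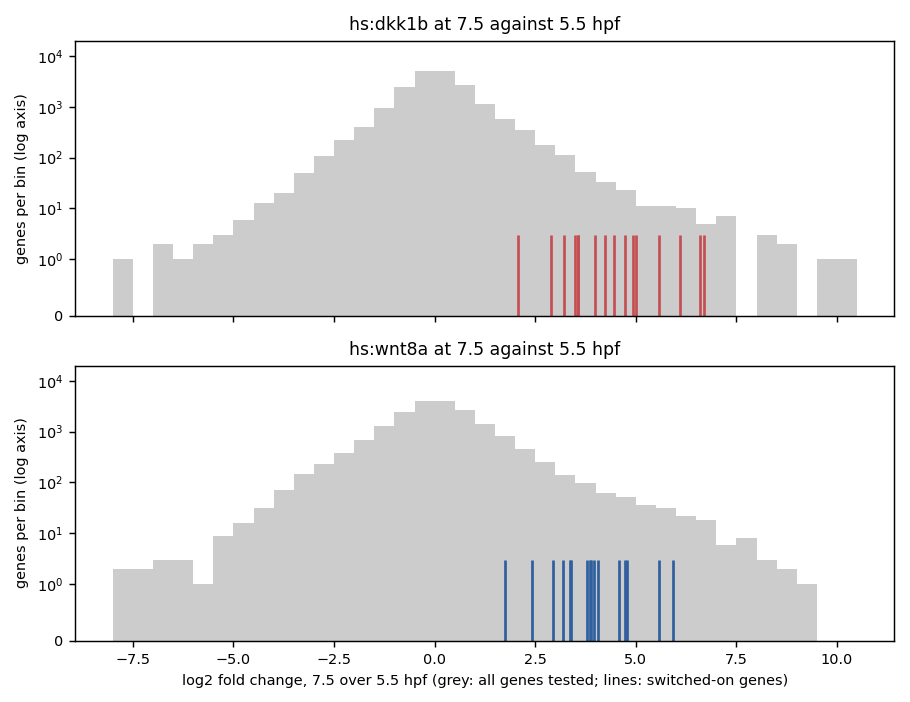
Log2 fold change at 7.5 against 5.5 hpf in transgenic embryos, whose siblings chose the genes, with grey bars for all genes tested in bins of 0.5 (log vertical axis, end bins also hold values beyond the axis) and lines for the switched-on genes with over 3 counts at 5.5 hpf. The lines lie right of the peak of all genes in both panels, from 2.06 to 6.68 in hs:dkk1b and from 1.76 to 5.92 in hs:wnt8a.

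Comparing hs:wnt8a embryos with their siblings at 7.5 hpf asks how excess Wnt ligand affects these genes. The siblings' floor of 5 TPM was part of the rule, so sibling levels in the comparisons below were chosen to be high at 7.5 hpf and low at 5.5 hpf. At 7.5 hpf, the transcription factor gene olig2 passed edgeR's main test in hs:wnt8a embryos. The transcription factor genes nr2f5, dmbx1a and nkx2.9 passed only in fits with the replicate number as a block. Each of these 4 genes was lower in every replicate pair. For olig2 the libraries had 2.75, 4.01 and 4.24 TPM in hs:wnt8a embryos (replicates 1 to 3), against 9.04, 17.5 and 17.9 TPM in siblings. The groups do not overlap, and each transgenic library held 22.9% to 30.4% of the sibling library of its number. The log2 fold change was -1.91 ± 0.36 (SE, adjusted p = 0.0326 by edgeR), the 1 call among the 18, where 0.0923% of all genes tested were called lower.

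For nr2f5 the libraries had 8.12, 10.3 and 20.7 TPM in hs:wnt8a embryos, against 22.5, 76.1 and 68.3 TPM in siblings. The groups do not overlap, though the highest transgenic and lowest sibling library are close. For dmbx1a the values were 3.11, 5.27 and 5.90 TPM in hs:wnt8a embryos, against 9.18, 18.18 and 21.9 TPM in siblings, again with no overlap. For nkx2.9 they were 1.203, 5.99 and 6.67 TPM in hs:wnt8a embryos, against 5.08, 16.6 and 16.0 TPM in siblings, and here the lowest sibling library lies below 2 of the transgenic ones. Sibling replicate 1 was the lowest sibling for 16 of the 18 genes, these genes and olig2 among them. Transgenic replicate 1 was the lowest of its group for 15 of the 18. Sibling replicate 1 was also the sibling library with 241 TPM of wnt8a_1, against 3.64 and 22.9 TPM in the others, and the part of this was not tested.

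With the replicate number as a block, all of these 4 genes fell in hs:wnt8a embryos, with log2 fold changes of -1.91 ± 0.22 for olig2 (SE, adjusted p = 5.03e-04), -1.96 ± 0.18 for nr2f5 (adjusted p = 3.47e-05), -1.68 ± 0.14 for dmbx1a (adjusted p = 1.71e-05) and -1.404 ± 0.22 for nkx2.9 (adjusted p = 0.00790). The blocked fit called 0.282% of all genes tested lower. Without the block nr2f5 stood at -2.00 ± 0.48 (adjusted p = 0.300), dmbx1a at -1.69 ± 0.49 and nkx2.9 at -1.33 ± 0.47 (adjusted p = 1 for both). The olig2 call without the block was lost (adjusted p 0.153 to 0.256) with any 1 of the transgenic libraries left out, with sibling replicate 2 or 3 left out, or with both replicate 1 libraries left out, and also in a fit of the comparison's own libraries (0.176). Without sibling replicate 1 it stood at 0.0218. DESeq2 without the block called olig2 (adjusted p = 1.34e-04), where it called 29 of 25581 genes. Of 13 alternative fits for olig2, 6 passed. In deviations from the group means of the hs:wnt8a line at 7.5 hpf, transgenic replicate 1 correlated positively with its own number alone, whereas transgenic replicate 2 correlated at 0.368 with sibling 2 and 0.428 with sibling 3, and transgenic replicate 3 at 0.693 with sibling 3 and 0.720 with sibling 2. In the blocked fit without both replicate 1 libraries, olig2 (adjusted p = 0.00487), nr2f5 (9.96e-05) and dmbx1a (3.5e-04) passed the test and nkx2.9 did not (0.0615). That fit called 52 of 19397 genes tested.

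Over all 18 genes the median log2 fold change in hs:wnt8a embryos was -0.50, against 0.00 over all genes tested, with 14 genes below 0 and 4 above. Lower in TPM in 3 of 3 pairs were 11 genes. The share of all genes tested that were lower in every pair was not counted. The floor of 5 TPM on these siblings can favour lower transgenic levels, so neither count is read as a fall of the whole set. The groups did not overlap, with hs:wnt8a lower, for 4 genes (3.98% of all genes tested), namely nr2f5, olig2, dmbx1a and si:dkey-239j18.3, and for 0 genes with hs:wnt8a higher (1.46%). The maternal and pluripotency list was higher in hs:wnt8a embryos in every pair, at 1079, 815 and 635 TPM against 939, 472 and 517 TPM in siblings. Its part in the lower levels was not tested. In hs:dkk1b embryos at 7.5 hpf the same list was lower in every pair, at 324, 411 and 229 TPM against 439, 491 and 350 TPM in siblings.

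The cathepsin L-like genes that met the limits were lower in every pair with wide spread. Values of si:dkey-239j18.3 were 2.196, 4.60 and 6.09 TPM in hs:wnt8a embryos, against 15.4, 11.0 and 16.5 TPM in siblings, with no overlap (log2 fold change -1.68 ± 0.79, not past the test). Of ctslb_2 there were 0, 12.2 and 7.75 TPM in hs:wnt8a embryos, against 0.721, 34.1 and 23.0 TPM in siblings, and both replicate 1 libraries were near 0. Transgenic levels of si:dkey-269i1.4_1 were 16.9% to 76.6% of their pair's sibling level. Copies outside the limits had closer means in hs:wnt8a embryos and siblings. These were 258 and 342 TPM for ctslb_4, 127 and 170 TPM for ctslb_1 and 39.7 and 51.9 TPM for ctslb_3. They were 68.3 and 114 TPM for si:dkey-239j18.2 and 30.2 and 48.8 TPM for si:dkey-269i1.4_2. The uncertainty about levels of single copies applies to all of these.

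The retinoic acid genes had overlapping values in these embryos and their siblings, and neither passed the test. The binding protein gene crabp2a stood at 16.7, 12.3 and 20.9 TPM in hs:wnt8a embryos and at 11.6, 20.0 and 19.3 TPM in siblings, and dhrs3a at 19.6, 15.9 and 22.6 TPM against 17.6, 17.5 and 19.4 TPM.

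The other genes did not pass the test in hs:wnt8a embryos. The LIM homeobox gene isl2a had 2.66, 3.54 and 6.54 TPM in hs:wnt8a embryos, against 4.07, 9.38 and 7.46 TPM in siblings, lower in each pair but with overlapping groups. Also lower in TPM in every pair were lsp1 (54.6% to 97.2% of the sibling level), aplnr2 (54.3% to 99.0%) and the myristoyltransferase gene nmt1b (49.7% to 66.5%). With TMM-scaled counts lsp1 was not lower in replicate 3 (log2 ratio 0.0094), and prdm8, at 62.5% to 100.4% in TPM, was below its sibling in every pair. The pairs disagreed in direction for zgc:101100 (50.4% to 136%), olig3 (44.3% to 133%), fhdc1 (78.4% to 168%) and ugt5g1 (77.2% to 136%).

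**Figure D3:**
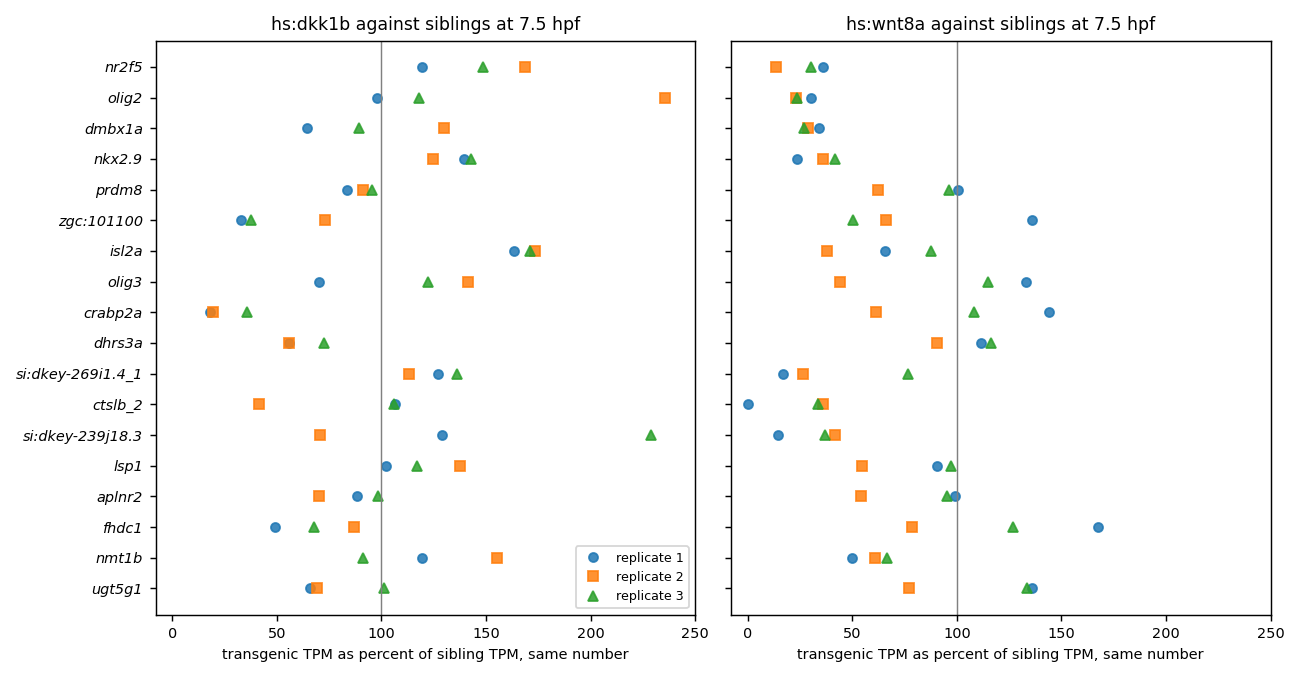
Level in each transgenic library as a percent of the sibling library with the same replicate number at 7.5 hpf, for hs:dkk1b (left) and hs:wnt8a (right), with a line at equal levels. In hs:wnt8a all points of olig2, nr2f5, dmbx1a and nkx2.9 lie at 13.5% to 41.8%, and in hs:dkk1b all points of crabp2a lie at 17.96% to 35.6%.

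Comparing hs:dkk1b embryos with their siblings asks how a block of Wnt signalling affects these genes. For crabp2a the pairs differed most. It had 4.77, 2.60 and 10.54 TPM in hs:dkk1b embryos at 7.5 hpf, against 26.5, 13.3 and 29.6 TPM in siblings. The groups do not overlap, with the transgenics lower (true for 2.93% of all genes tested), and transgenic libraries held 17.96% to 35.6% of their pair's sibling level. It fell in the fit with the replicate block, at -2.08 ± 0.22 on the log2 scale (SE, adjusted p = 1.35e-04), and the blocked fit called 0.59% of all genes tested lower. Without the block the value was -1.97 ± 0.43 (adjusted p = 0.0859 by edgeR and 0.00311 by DESeq2). Without hs:dkk1b replicate 3 it passed edgeR's test, at adjusted p = 0.0254. Of 13 alternative fits only these 3 passed, namely the block, DESeq2 and edgeR without that library.

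The other gene called in the blocked fit was zgc:101100, at 3.42, 1.68 and 3.98 TPM in hs:dkk1b embryos and at 10.46, 2.31 and 10.58 TPM in siblings. Its highest transgenic value lies above the lowest sibling value, so the groups overlap. It fell with the block, at -1.26 ± 0.27 on the log2 scale (adjusted p = 0.0497) and stood at -1.35 ± 0.50 without it (adjusted p = 1).

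Without the block, edgeR called 0 of the 18 genes in hs:dkk1b embryos at 7.5 hpf, where 0.154% of all genes tested were called, while 2 had an unadjusted p under 0.05, as did 2.67% of all genes tested, and DESeq2 called 1 (0.301% of all genes it tested). The median log2 fold change was -0.05, against 0.01 over all genes tested, with 9 genes on either side of 0. Dhrs3a stood at 12.1, 6.04 and 15.0 TPM in hs:dkk1b embryos and at 21.7, 10.9 and 20.7 TPM in siblings, lower in 3 of 3 pairs, with overlapping groups and -0.69 ± 0.40 (SE, not past either fit). Lower in every pair, and also not past either fit, were fhdc1 (48.9% to 86.7% of the sibling level), aplnr2 (70.0% to 98.4%) and prdm8 (83.3% to 95.7%).

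Higher in every pair was isl2a, at 12.7, 11.1 and 15.8 TPM in hs:dkk1b embryos against 7.79, 6.40 and 9.24 TPM in siblings. The groups do not overlap (true with the transgenics higher for 4.65% of all genes tested), and the libraries held 163% to 174% of their siblings, but the difference did not pass the test (0.74 ± 0.37, adjusted p with the block 0.112). The factor genes that fell in hs:wnt8a embryos were not past the test here: olig2 had 16.9, 21.3 and 26.7 TPM in hs:dkk1b embryos and 17.3, 9.03 and 22.7 TPM in siblings, and nr2f5 had 69.5, 31.5 and 90.1 TPM against 58.2, 18.7 and 60.6 TPM. For each of these genes the groups overlap. Transgenic TPM was above the siblings' in every pair, without passing either fit, for nkx2.9 (125% to 143%), lsp1 (102% to 138%) and si:dkey-269i1.4_1 (113% to 136%), as for nr2f5. With TMM-scaled counts si:dkey-269i1.4_1 was not higher in replicate 2 (log2 ratio -1.13e-04). Pairs disagreed in direction for dmbx1a (64.2% to 130%), olig3 (mean 5.98 TPM in hs:dkk1b embryos and 5.89 TPM in siblings), nmt1b (91.3% to 155%), ugt5g1 (65.7% to 101%), ctslb_2 (41.6% to 106%) and si:dkey-239j18.3 (70.6% to 229%).

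In the hs:dkk1b line the replicate 1 libraries at 7.5 hpf also had the highest heat-shock gene hsp70l, 2722 TPM in transgenics and 1352 TPM in siblings, against 40.8 to 88.1 TPM in the other 4 libraries. With both replicate 1 libraries left out crabp2a was -1.78 (adjusted p = 1 by edgeR without the block).

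**Figure D4:**
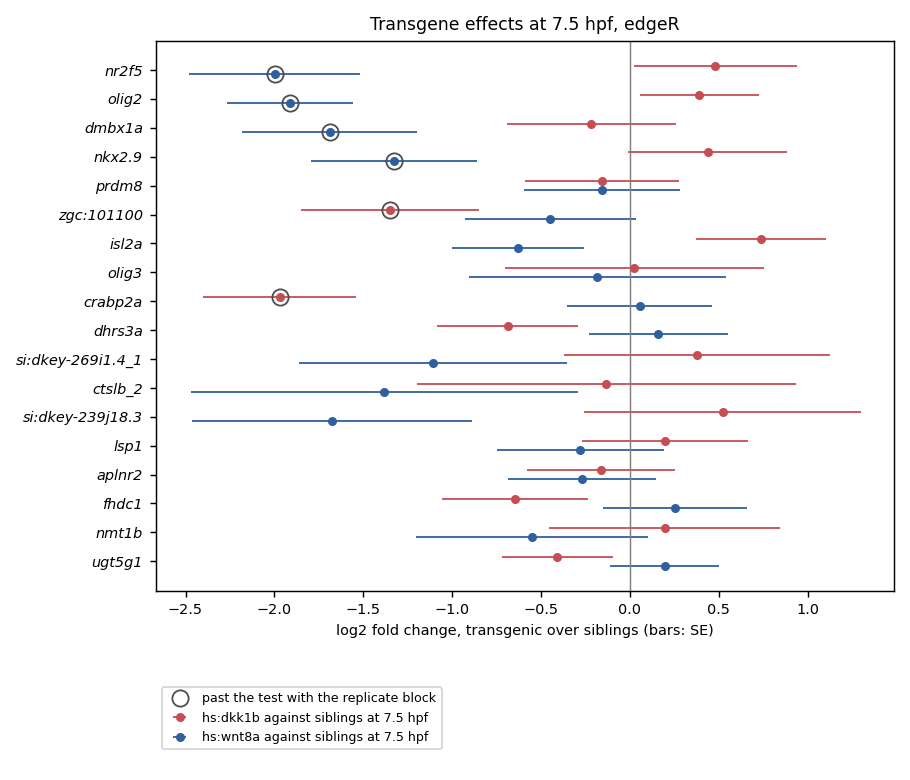
Log2 fold change of each gene in transgenics over siblings at 7.5 hpf (edgeR without the block, bars are SE), with rings where the fit with the replicate block passed an adjusted p of 0.05. Rings mark nr2f5, olig2, dmbx1a and nkx2.9 in hs:wnt8a, and crabp2a and zgc:101100 in hs:dkk1b.

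The effects of the transgenes were set against each other as the hs:wnt8a effect minus the hs:dkk1b effect at 7.5 hpf. With the block 6 of the 18 genes differed, where 1.27% of all genes tested did. The difference was -2.46 ± 0.24 for nr2f5 (adjusted p = 5.83e-05), -2.34 ± 0.30 for olig2 (adjusted p = 6.16e-04), -1.82 ± 0.30 for nkx2.9 (adjusted p = 0.00500), -1.50 ± 0.20 for dmbx1a (adjusted p = 8.45e-04) and -1.38 ± 0.27 for isl2a (adjusted p = 0.0183). For crabp2a it was 2.13 ± 0.29 (adjusted p = 0.00115). So in the blocked fit 5 transcription factor genes were lower under Wnt8a than under Dkk1b relative to siblings, and the binding protein gene was higher. For crabp2a the blocked value was 0.05 in hs:wnt8a and -2.08 in hs:dkk1b embryos. For isl2a it was -0.65 and 0.73, neither past the test.

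Without the block 0 of the 18 genes passed edgeR's test of this difference, where 0.205% of all genes did, and 6 had an unadjusted p under 0.05, as did 3.22% of all genes. DESeq2 called 1, olig2 (0.378% of all genes it tested). The unblocked value of olig2 was -2.30 ± 0.49 (adjusted p = 0.0592) and that of crabp2a 2.03 ± 0.59 (adjusted p = 0.446). For nr2f5 it was -2.48 ± 0.66 (adjusted p = 0.298). The other genes called with the block were nkx2.9 at -1.77 ± 0.65, dmbx1a at -1.47 ± 0.68 and isl2a at -1.37 ± 0.52, also not past the test without it. The lines also differ in heat-shock temperature and time, which cannot be told apart from the transgene in this difference, although each effect is taken against siblings treated alike. The maternal and pluripotency list, higher in each hs:wnt8a pair and lower in each hs:dkk1b pair, moved opposite ways in the lines, and its part in the difference was not tested. Without both hs:wnt8a line libraries of replicate 1 the blocked fit called 5 of the 18 genes, where it called 203 of 19397 genes tested. These were the genes called with all libraries except isl2a (adjusted p = 0.0553).

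At 5.5 hpf the levels were low and 0 of the 18 genes were called in either line. At an adjusted p of 0.05 edgeR called 0.0513% of all genes tested in hs:dkk1b embryos and DESeq2 0.207%, 0 of the 18 by either. An unadjusted p under 0.05 was found for 2 of the 18 genes, against 1.42% of all genes tested. In hs:wnt8a embryos edgeR called 0% of all genes tested and DESeq2 0.0177%, again 0 of the 18 by either, and 1 of the 18 genes had an unadjusted p under 0.05, against 3.33% of all genes tested. That comparison has only 2 transgenic libraries, and its siblings held 526 to 908 TPM of wnt8a_1, so an absence of calls says little there. Without both hs:dkk1b line libraries of replicate 2 the hs:dkk1b count stayed at 0. The mean of olig2 was 1.81 TPM in hs:dkk1b embryos and 0.947 TPM in siblings, higher in 3 of 3 pairs with overlapping groups. Crabp2a had 1, 0 and 3 counts in hs:dkk1b embryos and 14, 2 and 17 counts in siblings (log2 fold change -3.05, adjusted p = 1). For si:dkey-269i1.4_1 there were 15 counts in hs:wnt8a embryos and 0 in siblings, at least 7.78-fold higher against the floor.

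Of the gene lists compared with these genes, the neural plate list (77 of 98 symbols tested) holds nr2f5, olig2 and olig3, the retinoic acid list (22 of 26 tested) crabp2a and dhrs3a, and the axial mesoderm and hatching gland list (34 of 36 tested) ctslb_2, and the other 10 lists hold none of the 18. In hs:wnt8a embryos at 7.5 hpf, 5 neural plate genes fell by edgeR and 0 rose, where 0.0923% of all genes tested were called lower. Beside olig2 these were genes of the anterior neural plate. The values were -1.09 ± 0.17 for otx2a (SE, adjusted p = 0.00730 by edgeR) and -0.99 ± 0.15 for shisa2a (adjusted p = 0.00534). They were -1.15 ± 0.15 for hesx1 (adjusted p = 7.28e-04) and -1.71 ± 0.31 for lhx5 (adjusted p = 0.0244). The list's median was -0.17, against 0.00 over all genes tested. In hs:dkk1b embryos 1 gene of the list fell, sp8b (log2 fold change -1.89, adjusted p = 0.00785 by edgeR), and the median was 0.09. There 0.154% of all genes tested were called in either direction. With the replicate block 11 genes of the list fell and 0 rose in hs:wnt8a embryos, and 6 fell and 1 rose in hs:dkk1b embryos. The blocked fits called 0.282% of all genes tested lower in hs:wnt8a and 0.59% in hs:dkk1b embryos.

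The retinoic acid list had 0 genes past the test in either line at 7.5 hpf without the block, with medians of -0.02 in hs:dkk1b and 0.08 in hs:wnt8a embryos. The block added crabp2a alone, in hs:dkk1b embryos. Its paralogue crabp2b had 367 TPM in hs:dkk1b embryos and 325 TPM in siblings, and dhrs3b, the paralogue of dhrs3a, 191 TPM and 227 TPM. In the axial list gsc, a gene of the prechordal plate, fell in hs:wnt8a embryos (-1.92 ± 0.28, adjusted p = 0.00279), and noto and tbxta, genes of the notochord, fell in hs:dkk1b embryos (-1.57 and -1.61 on the log2 scale). With the block 2 genes of that list fell and 2 rose in hs:wnt8a embryos, and 4 fell and 0 rose in hs:dkk1b embryos. Of all genes tested, the block called 0.282% lower in hs:wnt8a and 0.59% lower in hs:dkk1b embryos.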

How the data were processed

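RNA-seq of whole zebrafish embryos was analysed from 1 deposited table per library. The authors deposited read counts, TPM and RPKM for 31743 genes, and only counts and TPM were used. The authors' tools named in the submitters' processing notes are edgeR, with no version, and the GRCz11 build; aligner, counting tool and strand are not given in the sources at hand. TPM was used for the rule and for levels, and counts for tests. One edgeR model (4.0.16, in R 4.3.3) covered all 8 groups, after filterByExpr left 19504 genes (all 18 members among them) and with TMM factors; the quasi-likelihood test was used with Benjamini-Hochberg adjusted p at 0.05. DESeq2 1.42.0 was an alternative. SE comes from the size of the log2 fold change over the root of the F value. Summaries used Python 3.11.15 and pandas 2.3.3. The edgeR fit without the block was tested on counts simulated without pairing of libraries. The fit with the replicate block was not tested in this way. The members and lists were chosen with earlier results of these data known. Genes are named by membership; log2 values are given for members called in a fit or kept from a call, and the few others were picked once their values were known.

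Transgenics and siblings carry the same replicate numbers. Deviations of same-numbered libraries correlated at 0.597 to 0.665 (hs:dkk1b) and 0.368 to 0.810 (hs:wnt8a) at 7.5 hpf and 0.684 to 0.860 (hs:dkk1b) at 5.5 hpf, so the numbers were taken to pair libraries there. In the hs:wnt8a line at 7.5 hpf, only transgenic replicate 1 correlated best with its own number. Transgenic replicate 2 correlated more with sibling 3 (0.428) than with sibling 2 (0.368). Transgenic replicate 3 correlated more with sibling 2 (0.720) than with sibling 3 (0.693). The correlations thus did not single out the own-number pairs of replicates 2 and 3, on which blocked values and pair counts of this line rest. At 5.5 hpf the hs:wnt8a pairs correlated at -0.133 and -0.112, and the transgenics of the 2 times at 0.0202 to 0.346. The numbers were therefore not read as pairs there. The blocked fit still held a block for every line, time and replicate number, the hs:wnt8a libraries at 5.5 hpf included. No blocked value for hs:wnt8a against siblings at 5.5 hpf is printed.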

Additional observations from a re-analysis of the deposited data

Results flagged for a closer look

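Of the 18 genes, 6 differed between the transgenes at 7.5 hpf in the test of the difference itself with the replicate block. Of all genes tested, 1.27% did. That fit takes replicate numbers as pairs, and the correlations did not single out such pairs for replicates 2 and 3 of the hs:wnt8a line. The hs:wnt8a effect minus the hs:dkk1b effect on the log2 scale was -2.46 for nr2f5, -2.34 for olig2, -1.82 for nkx2.9, -1.50 for dmbx1a and -1.38 for isl2a. It was 2.13 for crabp2a. The sign compares the effects and does not give the direction in hs:wnt8a embryos alone. With the block crabp2a stood at 0.05 in hs:wnt8a and -2.08 in hs:dkk1b embryos. For isl2a these values were -0.65 and 0.73, neither past the test. In the fit without the block 0 of these 6 genes passed the test. There 6 of the 18 genes had an unadjusted p under 0.05, as did 3.22% of all genes tested. Groups of 2 or 3 libraries are too small for the check of single libraries that stand apart.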

How the results depend on the processing

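The set of 18 genes depends on the limits. It holds 8 genes with a 5.5 hpf limit of 0.5 TPM and 84 with 2 TPM, 10 with a 7.5 hpf floor of 10 TPM and 84 with 2.5 TPM, and 8 when every sibling library must meet both limits; with 1 sibling library left out it holds 14 to 25. In hs:dkk1b embryos at 7.5 hpf, edgeR called 0 of the 18, DESeq2 1, the replicate block 2, and fits without 1 library 0 to 1. In hs:wnt8a embryos edgeR called 1, DESeq2 1 and the block 4. EdgeR called 0 with only the comparison's libraries or without both replicate 1 libraries, and fits without 1 library called 0 to 1. For the difference between the transgenes edgeR called 0, DESeq2 and edgeR with no filter on low counts 1 each, the block 6, and fits without 1 library 0 to 1. RLE scaling changed none of these counts. With the block and without both replicate 1 libraries of the hs:wnt8a line at 7.5 hpf, 3 genes were called in hs:wnt8a and 5 in the difference. Of all 19397 genes tested, that fit called 52 in hs:wnt8a and 203 in the difference. Leaving out both replicate 1 libraries of the hs:wnt8a line at 7.5 hpf, or both replicate 2 libraries of the hs:dkk1b line at either time, were alternatives chosen after seeing the data. The fit with the replicate block was not among the planned tests, which held no covariate. A block across times, where the numbers do not pair libraries, called 17 rises in hs:wnt8a, ctslb_2 (adjusted p = 0.0101) added. That fit called 8372 of 19504 genes tested in either direction. Rises between times in transgenics were called for 18 genes in hs:dkk1b and for 12 to 17 in hs:wnt8a without 1 library; leaving out a hs:wnt8a library at 5.5 hpf leaves 1, assumed to vary like the other groups. At 5.5 hpf, lsp1 in hs:dkk1b was -0.11 without hs replicate 3, against 0.90 in all libraries (-0.11 to 1.56 over fits without 1 library), and the cause was not tested. The fitted value of dhrs3a in hs:wnt8a at 5.5 hpf was 0.0 without hs replicate 1, against 2.51 in all libraries (0.0 to 3.40); with 1 count in hs:wnt8a and 0 in siblings it is no fold. Of 531 single-gene alternatives, 494 kept direction and side of the threshold, 28 passed it newly, 7 fell short and 2 turned direction. Over all genes, calls in hs:dkk1b at 7.5 hpf numbered 30 by edgeR, 59 by DESeq2 and 146 with the block, in hs:wnt8a 19, 29 and 75, and in the difference 40, 74 and 247. With 1 TPM at 7 to 54 counts, levels at 5.5 hpf rest on few reads.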
